A study of Drosophila melanogaster with 3 samples.

Results

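The regions described here are the CG18599-eGFP peaks that lay at the promoter of exactly 1 protein-coding gene. A peak of the dm6 list that passed the irreproducible discovery rate step (IDR, a comparison of peak ranks between replicates) was a member when a transcription start site (TSS) lay no more than 500 bp from its summit and the TSSs within that distance belonged to 1 gene. Of 8858 IDR peaks, 2317 were members (26.2%). A further 879 peaks lay within 500 bp of TSSs of several genes, called shared promoters here, and 5662 lay over 500 bp from any protein-coding TSS. The chromatin came from whole embryos of both sexes, 0 to 24 h after egg laying, of a transgenic fly line that expresses CG18599 with enhanced green fluorescent protein (GFP) at its C-terminal end, and it was precipitated with an antibody against GFP. The 3 biological replicates formed 1 group and came from the same line, with no untagged or input sample analysed here. Whole embryos mix many tissues and stages, so a peak does not say in which cells the protein was bound, and the tag rather than the native protein was precipitated.

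CG18599 encodes a protein with a homeodomain, a DNA-binding fold that in many family members prefers short words rich in A and T. Fly promoters fall into broad types. Those of genes used in most cells often carry the elements bound by DREF or M1BP, while many developmentally regulated promoters carry an initiator and, upstream of it, words bound by GAGA factor, a protein known for opening chromatin and for paused RNA polymerase. The initiator lies at the TSS itself, and the TATA box a short way upstream of it.

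The sequences at 8 strong members are shown first, in rank order, to let the base composition at strong summits be read directly. They are the strongest members on chromosome X and on arms 3L and 3R whose windows hold at least 40 bases outside annotated exons. Each is read 5′ to 3′ on the strand of its gene, within 50 bp of the summit on dm6, and stops at an annotated exon. Capitals mark the words searched: TAATTA, a homeodomain core, ATATTA, a further word rich in A and T, and CACACA, a repeat word, each also read on the other strand.
Ugalt, chrX:2703853-2703938, minus strand: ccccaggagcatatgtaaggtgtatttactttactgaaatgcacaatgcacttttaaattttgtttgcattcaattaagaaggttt
CG14100, chr3L:19590571-19590671, minus strand: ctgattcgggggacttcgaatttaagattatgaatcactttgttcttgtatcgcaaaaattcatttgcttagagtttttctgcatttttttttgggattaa
amon, chr3R:26714328-26714428, minus strand: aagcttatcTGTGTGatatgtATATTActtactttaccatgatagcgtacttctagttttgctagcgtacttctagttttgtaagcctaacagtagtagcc
Gapdh2, chrX:15867942-15868042, plus strand: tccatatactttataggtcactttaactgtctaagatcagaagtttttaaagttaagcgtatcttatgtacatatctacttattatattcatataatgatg
ph-p, chrX:2137256-2137356, minus strand: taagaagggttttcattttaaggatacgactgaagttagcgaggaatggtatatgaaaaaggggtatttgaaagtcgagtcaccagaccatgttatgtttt
PNPase, chr3R:31404606-31404652, minus strand: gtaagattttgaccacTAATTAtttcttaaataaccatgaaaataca
larp, chr3R:28326543-28326643, minus strand: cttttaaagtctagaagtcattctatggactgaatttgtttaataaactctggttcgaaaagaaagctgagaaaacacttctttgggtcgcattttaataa
Atf3, chrX:1275480-1275580, minus strand: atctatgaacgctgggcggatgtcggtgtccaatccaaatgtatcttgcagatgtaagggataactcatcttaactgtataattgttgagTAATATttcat

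The peak at Ugalt, the gene of a UDP-galactose transporter, ranked 2 of all IDR peaks and also 2 in replicates 1, 2 and 3. The 8 windows held between 62.4% A+T, at Atf3, a bZIP transcription factor gene, and 76.6%, at PNPase. The windows of Ugalt, CG14100, Gapdh2, ph-p and larp held none of the 7 words searched. Those of amon and Atf3 held ATATTA, and that of PNPase held TAATTA.

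A second set shows members whose summits lay close to the TSS at genes of the translation and respiratory machinery, namely the 3 strongest at cytosolic ribosomal protein genes and 2 chosen because their windows hold the DREF or the M1BP element. Here capitals mark TATCGATA, the DREF element, GGTCACAC, the M1BP element, CACGTG, an E-box, and TAATTA.
RpL23A, chr3L:1668674-1668774, minus strand: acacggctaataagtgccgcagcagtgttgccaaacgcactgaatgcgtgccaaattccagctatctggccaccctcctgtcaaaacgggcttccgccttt
RpL30, chr2L:19009307-19009373, minus strand: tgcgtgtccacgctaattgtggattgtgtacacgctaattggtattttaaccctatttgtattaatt
RpL24, chr2L:13395132-13395204, minus strand: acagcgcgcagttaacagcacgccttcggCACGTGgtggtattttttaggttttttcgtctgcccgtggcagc
eEF1gamma, chr3R:29220085-29220171, plus strand: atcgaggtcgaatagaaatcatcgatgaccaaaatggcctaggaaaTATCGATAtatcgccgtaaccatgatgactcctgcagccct
Cyt-c-p, chr2L:16719881-16719931, plus strand: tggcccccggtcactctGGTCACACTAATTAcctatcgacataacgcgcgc

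RpL23A ranked 275 in the IDR list and 269, 215 and 460 in replicates 1, 2 and 3. Its window held 45.5% A+T and none of the words searched. The window of RpL30 held 64.2% A+T and that of RpL24 45.2%. That of eEF1gamma, an elongation factor gene, held 55.2% and that of Cyt-c-p, the gene of cytochrome c, 43.1%. RpL30 thus lay within the range of the 8 strong windows and the other 4 below it.

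Single-gene promoters held peaks at a higher density than the rest of the genome outside promoters. Positions that could give a member make up 9.97% of the chromosome arms, or 13348409 bp, and held 174 members per Mb. Shared promoters held 443 peaks per Mb and the remaining genome 47.8 per Mb. In lists of the 8858 strongest peaks of each replicate, called top lists here, 27.7%, 27.5% and 23.4% of the summits lay at single-gene promoters in replicates 1, 2 and 3 (26.2% ± 2.42, SD, n = 3). In the remaining 21142 entries of each replicate's list the share was 14.7% ± 1.21 (SD, n = 3), below that of each top list.

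Member summits lay mostly upstream of the TSS. Of the 2317 members, 1741 were upstream (75.1%), and the median position was 129 bp before the TSS, written −129 bp, with quartiles of −250 and −1 bp. The upstream share was 73.9%, 73.4% and 75.6% in the top lists of replicates 1, 2 and 3 (74.3% ± 1.14, SD, n = 3). The median position was −112, −116 and −144 bp (−124 ± 17.4 bp, SD, n = 3). Upstream positions make up 45.2% of the territory that could give a member. Of the 3066 summits of the pooled list that met the same rule but were outside the IDR list, 58.0% were upstream.

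**Figure D1:**
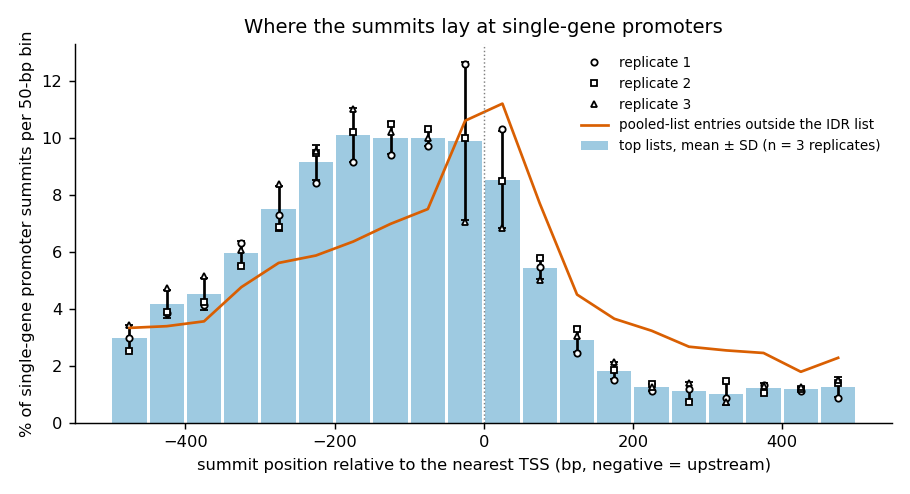
Share of single-gene promoter summits in 50-bp bins along the promoter (x axis in bp from the TSS, y axis in percent of summits). Bars give the mean ± SD of 3 replicate top lists and points each replicate, and the line gives pooled-list entries outside the IDR list. The bars are highest upstream of the TSS, and in the bin of −50 to −1 bp the replicates spread from 7.04% to 12.6%, while the line peaks just after the TSS at 11.2%.

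The profile of summit positions shows where the replicates differed. In the bin just upstream of the TSS, −50 to −1 bp, lay 12.6%, 10% and 7.04% of the summits of replicates 1, 2 and 3. In the bin of −200 to −151 bp the shares were 9.16%, 10.2% and 11.0%. Replicate 3 was thus the lowest at the TSS and the highest at the second bin, and it gave the median farthest upstream.

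Relative to the gene of the nearest TSS, the annotation places 1078 members outside it, 705 in an intron and 534 in an exon. The 576 members at or downstream of the TSS lay in an exon in 441 cases and in an intron in 135. Of the upstream members, 570 lay in an intron of that gene, which has an earlier start. A protein-coding gene other than the one whose TSS was nearest covered 230 members (9.93%). The nearest TSS of another protein-coding gene was a median of 3202 bp away, and for 316 members it was over 500 and up to 1000 bp away.

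The rule's limit of 500 bp cut through an even stretch of the list. Just inside it, over 450 bp from the TSS, were 99 members with a median rank of 3265. Just outside it, over 500 and up to 550 bp from the nearest TSS, were 98 summits with a median rank of 3444. The upstream share was 69.7% inside and 73.5% outside.

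Members were spread through the ranks, with more of them at the top. The authors' signal value, a height per peak in units that the notes do not name, served only to order the peaks of a list. Of the 885 strongest IDR peaks, which are 10% of the list, 326 were members, or 36.8%, while the 9 following groups of that size held 22.8% to 28.6%. Put the other way, 14.1% of members were among the strongest 10%, against 18.0% of peaks at shared promoters and 7.08% of peaks over 500 bp from a TSS. In the top lists of replicates 1, 2 and 3 the share of single-gene summits among the strongest 10% was 13.7%, 13.7% and 14.9% (14.1% ± 0.728, SD, n = 3). The difference from shared promoters in these lists, −2.92 ± 0.733 percentage points, depended on the settings. It was 0.660 ± 0.859 (SD, n = 3) in the stronger part of the top lists, −15.6 with whole replicate lists and −9.74 with a TSS distance of 250 bp. In the stronger part and in whole lists the strongest 10% was taken anew from the list, so it held other numbers of peaks.

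Strong members lay farther upstream than weak ones and in DNA richer in A and T. Along 10 groups of equal size in the IDR list, from strongest to weakest, the upstream share of members fell from 88.7% to 64.0% and the median position moved from −190 to −49 bp. The mean A+T share in 51 bp at the summit went from 68.6% to 55.5%. Within the replicates, summits of the strongest 10% had a median position of −186, −187 and −201 bp (−191 ± 8.39 bp, SD, n = 3). Those of the weakest 10% had one of −35, −49 and −83 bp (−55.7 ± 24.7 bp, SD, n = 3). The values of strong and weak summits did not overlap between replicates.

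**Figure D2:**
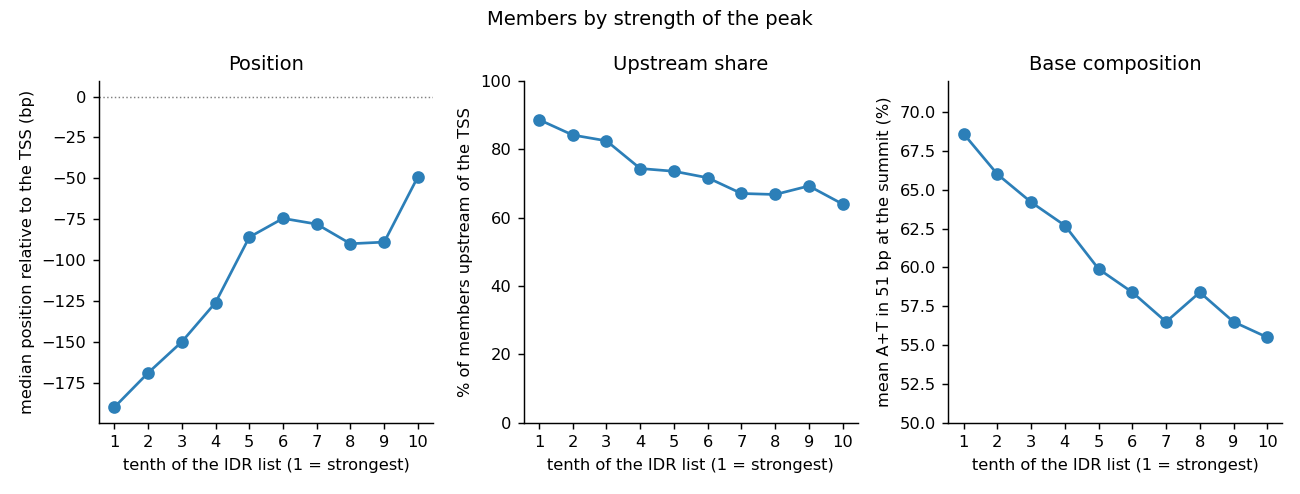
Members by rank in 10 equal groups of the IDR list, from the strongest (1) to the weakest (10): median summit position in bp from the TSS (left), percent of members upstream (middle, axis from 0) and mean A+T in 51 bp at the summit in percent (right, axis not from 0). Points are values of the IDR list. The upstream share goes from 88.7% in the strongest group to 64.0% in the weakest, and A+T from 68.6% to 55.5%.

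Position and base composition go together along a promoter, so A+T was also read at matched positions. Among members over 200 bp upstream, the 152 in the strongest 10% held 70.1% A+T and the other 645 held 64.8%. Promoters without a member, read at the same positions, held 60.9%. Here and below, such promoters can lie at a peak of the shared class, so they are not a set of unbound promoters. In replicates 1, 2 and 3 the strong summits of this stretch held 69.2%, 70.1% and 70.9%, and the others 63.5%, 65.1% and 65.7%, with no overlap.

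Nearer the TSS the strong members again held more A+T than the other members. At 200 to 51 bp upstream, 128 strong members held 68.6% and 607 others 61.4%, with 62.1% in promoters without a member. Within 50 bp of the TSS, 16 strong members held 57.5% and 384 others 51.1%, with 57.3% in promoters without a member. Members at the TSS outside the strongest 10% were thus in DNA with less A+T than promoters that had no member. Downstream by 51 to 500 bp, 30 strong members held 66.9%, 355 others 58.1%, and promoters without a member 55.3%. In the top lists of the 3 replicates the strong summits held more A+T than the others in each of the 4 stretches.

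Base composition along whole promoters differed as well. At the TSS, promoters with a member held 51.9% A+T, against 56.5% in promoters without. At −300 bp the order was the other way, with 63.6% against 61.5%. Promoters with a member therefore had a steeper step in base composition between the upstream DNA and the TSS.

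**Figure D3:**
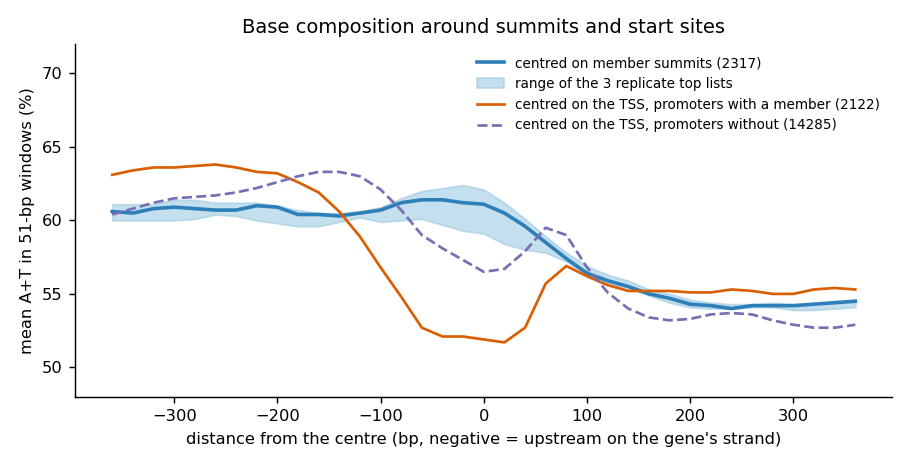
Mean A+T in 51-bp windows (y axis in percent, not from 0) against the distance from the centre in bp, on the strand of the gene. Lines are centred on member summits, with the range of the 3 replicate top lists shaded, or on the TSS of promoters with and without a member. At the TSS promoters with a member sit at 51.9% and those without at 56.5%, while at −300 bp they sit at 63.6% and 61.5%.

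Members with summits at different places ranked and looked different. The 797 members over 200 bp upstream had a median rank of 3396, and 19.1% of them were among the strongest 10%. The 735 members 200 to 51 bp upstream had a median rank of 3536 and a share of 17.4%. The 400 members within 50 bp of the TSS had a median rank of 5094 and a share of 4.0%, and the 385 farther downstream a median rank of 5153 and a share of 7.79%. The DREF element lay in 3.75% of the summit windows, 50 bp to each side, of members within 50 bp of the TSS and in 0.376% of those over 200 bp upstream. The M1BP element lay in 3.5% and 0.376%. The homeodomain core TAATTA had the other order, with 1.5% at the TSS and 9.66% over 200 bp upstream.

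The words in the summit windows changed along the ranks. From the strongest to the weakest of the 10 groups, ATATTA went from 24.5% to 6.16% of members, and TAATTA from 10.1% to 4.74%. GAGAG went from 7.98% to 23.2%. Of the 332 members with ATATTA, 80 were among the strongest 10%, and of the 173 with TAATTA, 33 were. The strongest members with the DREF element were those of Alg3, a gene of glycan assembly at rank 206, and Hs3st-A, a heparan sulfate sulfotransferase gene at rank 239. The strongest with the M1BP element were those of RpL37A at rank 1094 and RpL27A at rank 1502, both genes of ribosomal proteins. A word in a window is a match of letters, not a bound site.

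Read over the whole promoter, the GAGA-factor word was more frequent where a member lay. Promoters were read from 250 bp before to 49 bp after the TSS, 1 for each group of TSSs of a gene separated by no more than 500 bp. GAGAG, on either strand, lay in 49.6% of the 2122 promoters with a member and in 32.8% of all 16407 eligible promoters. It was 50.3%, 47.6% and 49.6% in promoters with a summit of the top lists of replicates 1, 2 and 3 (49.2% ± 1.40, SD, n = 3), and 57.2% in the 318 promoters with a member in the strongest 10%. In 50-bp bins the largest share lay at −100 to −51 bp, with 27.7% of promoters with a strong member, 21.6% of those with any member and 8.44% of those without. Strong members thus lay in promoters that often held the word, while their own summit windows held it rarely.

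Other promoter elements split in both directions. The initiator, TCAGT or TCATT on the sense strand within 10 bp of the TSS, lay in 26.5% of promoters with a member and in 17.9% of all. With a member in the strongest 10% the share was 31.4%. The repeat word CACACA, on either strand, lay in 24.8% against 21.0%. The initiator of translation genes, CTTT between pairs of pyrimidines, was rare, at 1.08% against 0.646%. Less frequent with a member were the TATA box, TATAAA on the sense strand 45 to 15 bp upstream, with 4.76% against 8.19%, and the DREF element, TATCGATA, with 5.42% against 7.92%. The M1BP element, GGTCACAC, had 5.33% against 6.56%, the homeodomain core TAATTA 14.5% against 19.2%, ATATTA 28.2% against 31.0%, and CACGTG 3.91% against 4.10%. For the initiator the values over the top lists were 26.9%, 25.5% and 26.1%, and for the TATA box 4.39%, 4.73% and 4.51%, in replicates 1, 2 and 3. Promoters with a member hold less A+T near the TSS, so words made of A and T have fewer places there, and its part in these shares was not tested. The eligible promoters can also include some at peaks of the shared class, which are not members. Summit windows at shared promoters held the DREF element in 4.46% and the M1BP element in 2.31%, against 1.60% and 1.04% at single-gene promoters. The part of the rule in the lower shares of these elements was not tested either.

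**Figure D4:**
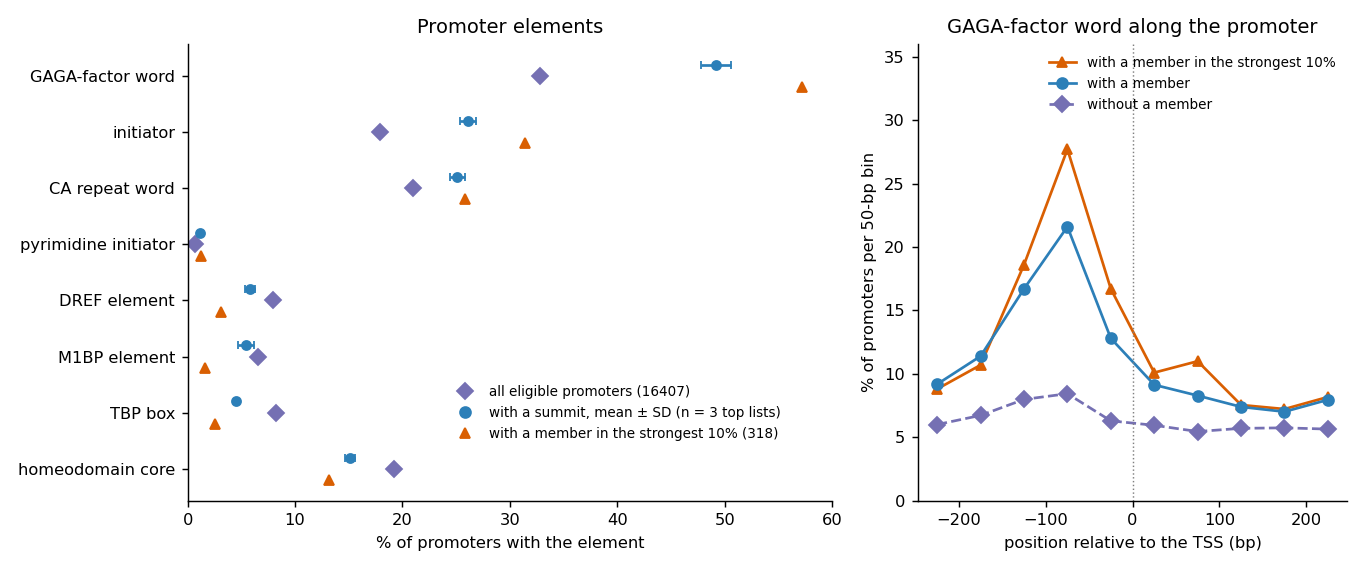
Left, percent of promoters with each element (x axis from 0) among all eligible promoters, among those with a summit of a replicate top list (mean ± SD, n = 3) and among those with a member in the strongest 10%. Right, percent of promoters with the GAGA-factor word in each 50-bp bin, by position from the TSS in bp; the TBP box is the TATA box. The GAGA-factor word and the initiator are higher with a summit (49.2% and 26.1%) than over all eligible promoters (32.8% and 17.9%), and the GAGA-factor word reaches 27.7% at −100 to −51 bp in promoters with a strong member.

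Taken as a class, members had less A+T at the summit and more often the GAGA-factor word than the other peaks of the same libraries. Each measure was taken per replicate in its top list and the classes were compared within a library by an exact sign-flip permutation test, two-sided, for which 0.25 is the smallest p that 3 replicates allow. No comparison could therefore pass 0.05. Of 22 comparisons, 18 had the same direction in the 3 replicates, and for these p was 0.25 and the Benjamini-Hochberg adjusted p 0.306. A+T at the summit was 59.1%, 61.4% and 62.1% at single-gene promoters in replicates 1, 2 and 3, and 64.2%, 67.0% and 67.4% at shared promoters. The difference was −5.32 ± 0.206 percentage points (SD, n = 3), and against summits over 500 bp from a TSS it was −4.13 ± 1.02. With whole replicate lists the latter was −1.75 ± 0.942, and with a TSS distance of 1000 bp the former was −2.77. The difference from distant summits depended on the place of the member. In the IDR list, members over 200 bp upstream held 65.8% A+T and those 200 to 51 bp upstream 62.6%. Members within 50 bp of the TSS held 51.3% and those farther downstream 58.8%, where distant summits held 65.5%.

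GAGAG lay in 16.8%, 14.7% and 15.2% of the summit windows at single-gene promoters. It lay in 8.29%, 7.17% and 8.33% at shared promoters, and in 12.2%, 11.5% and 10.8% over 500 bp from a TSS. The DREF element lay in 1.60% ± 0.442 of windows at single-gene promoters, below the 4.46% ± 0.502 at shared promoters and above the 0.201% ± 0.0471 of distant summits (SD, n = 3). The M1BP element had the same order, with 1.04% ± 0.401, 2.31% ± 0.516 and 0.267% ± 0.0291. TAATTA was less frequent at single-gene promoters, with 7.17% ± 0.873, than at shared promoters, with 11.7% ± 1.18, or at distant summits, with 9.10% ± 0.345. ATATTA likewise had 14.5% ± 0.889 against 22.1% ± 2.48 and 17.4% ± 0.400. Its difference from distant summits, −2.90 percentage points, was −0.777 with whole replicate lists. CACACA had 8.64% ± 1.02 against 4.94% ± 0.454 at shared promoters, and 8.83% ± 0.658 at distant summits, where replicates differed in direction (p = 1.00 in the exact test). The E-box CACGTG had 1.03% ± 0.0306 against 0.970% ± 0.117 and 0.779% ± 0.210. Its difference from shared promoters had the same direction in 2 of 3 replicates.

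Summits at single-gene promoters lay farther from the nearest TSS, with a median of 163 ± 14.6 bp against 90.7 ± 10.2 bp at shared promoters. Where several genes start close together a summit is near some TSS by geometry. The upstream share was 74.3% ± 1.14 against 79.3% ± 0.270, and the median peak width did not separate the classes, since 69.0% of members had the list's default width of 440 bp.

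Most members were found again in the replicates. A replicate supported a member when a summit of its top list lay within 250 bp, which held for 88.5%, 90.2% and 80.5% of members in replicates 1, 2 and 3. All 3 supported 1602 members (69.1%), against 70.1% of all IDR peaks, and 17 members had no support from any. Replicate 3 alone was missing for 272 members, replicate 1 alone for 120 and replicate 2 alone for 110. Support by all 3 went from 99.7% of members in the strongest of the 10 groups to 13.3% in the weakest. The same replicates chose the IDR peaks, so this describes the spread of that list. For 328 members (14.2%) another member lay within 250 bp, so some neighbouring peaks rest on the same stretch of chromatin.

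The 20 strongest members ranked between 2 and 45 in the IDR list and no lower than 58, 48 and 48 in replicates 1, 2 and 3. Of these, 19 lay upstream of the TSS, at positions from −451 to 84 bp and a median of −184 bp. After Ugalt came CG14100 at rank 4, which ranked 4, 4 and 8 in the replicates, and px, the wing vein gene plexus, at rank 5, which ranked 5, 8 and 5. The peak of amon, the gene of a prohormone convertase of neurosecretory cells, ranked 7 and lay at −219 bp. Gapdh2 ranked 10 at −153 bp, and ph-p, a polyhomeotic gene of the Polycomb group, ranked 12 at −451 bp. Genes of the RNA-binding proteins larp and elav ranked 18 and 42, both upstream. PNPase, the gene of a polynucleotide phosphorylase, ranked 17 and was the 1 gene of the 20 with a downstream summit, at 84 bp. Regulators of transcription among them were Atf3 at rank 23 and Sox14, a factor of the hormone-driven metamorphosis, at rank 40. The kinase gene gish, at rank 45, and mRpL41, a mitochondrial ribosomal protein gene at rank 16, were also among them. The others were Tina-1, MFS10, CG1888, CG31145, CG18549, Fkbp14 and CG1635.

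Members fell on 1847 genes, which is 13.7% of the 13470 protein-coding genes that could have one. The top lists of replicates 1, 2 and 3 reached 14.3%, 14.4% and 12.2% of these genes (13.7% ± 1.24, SD, n = 3). A single member lay at 1475 genes, 2 at 299, 3 at 55, 4 at 14, and 5 or more at 4. Members in the strongest 10% lay at 309 genes, or 2.29% of those eligible. CG18599 itself had no member, and the nearest IDR summit lay 2269 bp from its TSS.

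Genes with several separate promoters had members more often, also per promoter. Of genes with 1 promoter, 8.83% had a member, of those with 2, 32.5%, and of those with 3 or more, 58.3%. Per promoter the share was 8.83% for the only promoter of a gene, 22.2% for the first of several and 22.3% for a later one. Over the top lists these were 8.80% ± 1.02, 21.7% ± 2.20 and 22.2% ± 1.14 (SD, n = 3). The first and the later promoters did not differ beyond that spread, while the only promoters lay below both in each replicate. Of 841 genes with several promoters and a member, 265 had members only at the first, 421 only at later ones and 155 at both. Altogether 771 members (33.3%) lay at a promoter that was not the first of its gene.

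Rtnl1, the gene of a reticulon of the endoplasmic reticulum, had the most members, 7 at 5 of its 7 promoters, with the strongest at rank 71. The gene dnc, which encodes the cAMP phosphodiesterase Dunce, had 6 members at 5 of 8 promoters, and cnc, the fly relative of the oxidative stress factor NRF2, had 5 at 5 of 8. PAN3, a deadenylase subunit gene, had 5 at 4 of 5 promoters. Some members of Rtnl1, dnc and PAN3 lay within 250 bp of another member of the gene, while those of cnc did not. These numbers therefore count summits, and the order of the genes depends on counting neighbouring summits separately. With 4 members, ph-p was 1 of 14 genes and is named for the strongest peak among them. Its members lay at both of its promoters, and the strongest ranked 12. The strongest member of cnc ranked 1707, so many members at a gene did not mean strong ones.

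Gene groups differed widely in how many of their genes had a member. The shares are to be read against the 13.7% of all eligible genes and, for members in the strongest 10%, against 2.29%. The share of genes with a member rose with the number of promoters of a gene, and groups were not matched for that number. Peaks at shared promoters, 443 per Mb against 174 members per Mb, are not members by the rule. A gene without a member can therefore still lie at a peak shared with a neighbouring gene. How far this lowered the share of a group was not tested. The genes of cytosolic ribosomal proteins, the structural parts of the ribosome, had a member at 33 of 85 (38.8%), and 7 had one in the strongest 10%. The share was 34.1%, 47.1% and 30.6% in the top lists of replicates 1, 2 and 3. The median position of their strongest summits was −35 bp, closer to the TSS than the −129 bp of all members. RpL23A at rank 275, RpL30 at rank 388 and RpL24 at rank 414 were the strongest. In RpL30 the replicate ranks were 443, 269 and 802, and in RpL24 they were 310, 372 and 775, so replicate 3 ranked both lowest.

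The other parts of the translation machinery did not share that level. Mitochondrial ribosomal protein genes had a member at 2 of 70 (2.86%), mRpL41 and mRpL19, and aminoacyl-tRNA synthetase genes at 1 of 32 (3.12%), AlaRS. Translation factors had 10 of 53 (18.9%), led by eIF6 at rank 52, eEF1gamma at rank 470 and eEF2 at rank 1929. Translation factors had 17.0%, 22.6% and 15.1% in replicates 1, 2 and 3, where all eligible genes had 14.3%, 14.4% and 12.2%.

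Genes of energy metabolism were split by pathway. Of 15 genes of glycolytic enzymes, 8 had a member (53.3%), in the replicates 53.3%, 53.3% and 46.7%, and 5 had one in the strongest 10%. Their median position was −202 bp. Gapdh2, enolase (Eno) at rank 98 and hexokinase A (Hex-A) at rank 150 led the group. Of 91 respiratory chain genes, 7 had a member (7.69%), with blw, an ATP synthase subunit gene, at rank 1091, Cyt-c-p at rank 2637 and ND-B22, a complex I subunit gene, at rank 4348, and none was in the strongest 10%. Subunits of the vacuolar H+ ATPase, which acidifies organelles, had 3 of 33 (9.09%), namely Vha13, Vha16-1 and VhaM9.7-c. In the replicates their share was 15.2%, 18.2% and 6.06%, on both sides of the value of all genes.

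Among genes of RNA and protein handling, splicing and RNA-binding proteins had a member at 12 of 31 (38.7%), and 5 had one in the strongest 10%, led by larp, elav and msi. The share was 38.7%, 38.7% and 35.5% in the replicates. Heat shock and chaperone genes had 8 of 36 (22.2%), led by Hsp83 at rank 100, Hsp27 at rank 133 and Hsp22 at rank 1229. Proteasome subunits had 2 of 48 (4.17%), Rpn11 and Rpn12. Rab GTPases, which direct vesicle traffic, had 5 of 36 (13.9%), close to all genes, with Rab5, Rab26 and Rab11 the strongest.

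Genes of transcription and chromatin were also uneven. General transcription factors and RNA polymerase II subunits had a member at 3 of 62 (4.84%), namely TfIIA-S, MED4 and Polr2F. Promoter and insulator factors had 5 of 20 (25%), including Trl, the gene of GAGA factor, at rank 363, lola at rank 778 and BEAF-32, an insulator protein gene, at rank 2634. Polycomb and Trithorax group genes had 6 of 26 (23.1%), led by ph-p, Su(z)2 and ph-d, with a median position of 49 bp downstream. The replicates gave 23.1%, 30.8% and 15.4% for them, a spread that reaches near the value of all genes.

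Developmental regulators differed by class. Homeobox factors, the family of CG18599, had 8 of 64 (12.5%), and 17.2%, 9.38% and 12.5% in the replicates, on both sides of all genes. They were led by tin, the heart and mesoderm gene tinman, at rank 504, NK7.1 at rank 1077 and the eye gene so at rank 2909. Genes of the Notch, Wnt, Hedgehog, Dpp and EGFR pathways had 16 of 40 (40%), led by shn, a Dpp pathway factor gene, at rank 217, spi, the gene of an EGFR ligand, at rank 259, and nkd, a Wnt pathway inhibitor gene, at rank 769. In the replicates their share was 40%, 42.5% and 25%, with replicate 3 the lowest. Ecdysone response genes had 5 of 15 (33.3%), led by E23, an ABC transporter gene, at rank 162, Eip75B, a nuclear receptor gene, at rank 364, and Eip63E. Axon guidance and synapse genes had 13 of 25 (52%), but none in the strongest 10%, with the adhesion genes Nrt at rank 1472, Fas2 at rank 2453 and Fas3 at rank 3208. Cell cycle genes had 5 of 35 (14.3%), led by Dp, CycG and fzr, and actin, tubulin and myosin genes 5 of 25 (20%), led by sqh, Act5C and alphaTub84B.

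Sensory receptor, cuticle and reproductive genes were nearly without members. Chemoreceptor genes had 1 of 176 (0.568%), Gr21a at rank 3632, cuticle protein and Osiris genes 2 of 141 (1.42%), Osi24 and Cpr65Av, and eggshell and seminal fluid genes 0 of 63. The replicates each gave 0.568% for chemoreceptors and 0 for eggshell and seminal fluid genes. The 23 groups together hold 9.06% of eligible genes and 8.98% of the members, so most members lay at genes outside them.

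**Figure D5:**
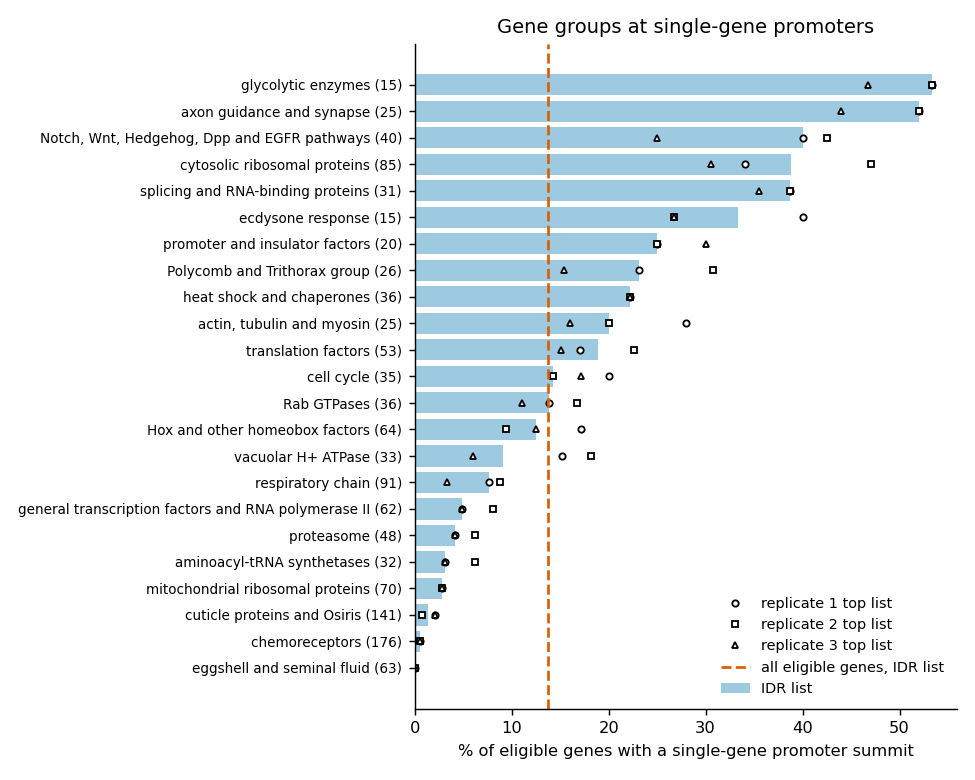
Percent of eligible genes with a single-gene promoter summit for 23 gene groups (bars, IDR list, axis from 0; number of eligible genes in brackets), with the top list of each replicate as points. The dashed line is the 13.7% of all eligible genes. Glycolytic enzymes (53.3%) and axon guidance and synapse genes (52%) are highest, and eggshell and seminal fluid genes are at 0.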

How the data were processed

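Chromatin immunoprecipitation was sequenced in 3 biological replicates of 1 group, with chromatin sheared to 200 to 800 bp, per the labels. Each replicate list of 30000 entries rests on that library and a control, and the pooled list on the 3 libraries together, per the deposited notes. Those notes name no aligner, no peak caller and no threshold for the IDR step. The authors' signal value, a measure of height in units not named, gave the order of peaks and nothing else. A deposited column taken to be −log10 q-values was tried as another ranking, but 4891 IDR peaks (55.2%) share its top value. The lists give no read numbers, so depth is unknown, and values carry no error from counting. Only dm6 lists were used.

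Summits were placed on dm6, counted from 1, against Ensembl release 115 gene models, and sequence came from the RefSeq genome of the same build. Of 13945 protein-coding genes, 13470 had at least 1 position that could give a member. TSSs of a gene with gaps of up to 500 bp formed 1 promoter. Top lists hold the 8858 strongest peaks of a replicate. Words were searched within 50 bp of summits and A+T was counted in 51 bp. Class differences were tested over replicates by an exact sign-flip permutation test. The assignment of classes and positions and the word search were tested on simulated data, and the permutation test on fixed values. Peaks are not replicates, so shares over peaks carry the spread over replicates and no p-value. Named genes are those of the 20 strongest members, the 5 genes with the most members (ties by the strongest peak), up to 3 genes of each of 23 lists, up to 2 members for each word, and CG18599. The members and lists were chosen with earlier results of these data known, and A+T at matched positions and GAGAG by position were added after seeing the values. The list names Z4, Srsf11, nos, Dl and Cos matched no gene and were left out. Alternatives covered the TSS distance, the TSSs counted, the list length, merged summits, the support distance, the word window and each replicate left out. Analyses used Python 3.11.15, numpy 2.4.6, pandas 2.3.3 and matplotlib 3.10.9.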

Additional observations from a re-analysis of the deposited data

How the results depend on the processing

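The number of members was recomputed under 9 alternatives and stayed within 1.5 times 2317 under 8 of them, at 1712 to 2741. The other 6 values over members were recomputed 50 times in all, of which 25 lay within 1 SD of the replicates and 25 beyond it. Support by every replicate has no value per replicate, so for it the SD was that of support by each replicate alone, 5.15. A TSS distance of 250 bp gave 21.7% of IDR peaks as members, 73.9% upstream, a median position of −81.5 bp and 12.5% in the strongest 10%. A distance of 1000 bp gave 30.9% of IDR peaks, 69.4% upstream and 15.1% of eligible genes. The stronger part of the IDR list gave 1248 members, 81.4% upstream, a median of −158 bp, 8.09% of eligible genes and 95.4% supported by every replicate. Counting neighbouring summits once gave 15% of members in the strongest 10%. Peaks supported by both replicates that remain when one is left out gave 76.6% to 78.6% upstream, 17.4% to 19.0% in the strongest 10% and 10.3% to 11.3% of eligible genes, against 75.1%, 14.1% and 13.7%. Their median position was −150 to −137 bp. Requiring support of 2 replicates removes weak peaks by construction. Support by every replicate was 58.6% at 100 bp and 92.7% with whole replicate lists. The q-value column has too many ties to give a strongest 10%, and the number of members does not depend on the ranking.

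The 20 class differences other than those of peak width were recomputed 168 times in all. Their direction was kept 162 times and reversed 6 times, and the cause was not tested. Of the 162, 63 were over 1.5 times larger or smaller, 23 of them with another word window, where a longer window holds more words by construction. The share in the strongest 10%, single-gene minus shared promoters, was −2.92 percentage points. It was 0.660 ± 0.859 (SD, n = 3) in the stronger part of the top lists and −15.6 with whole replicate lists, each with its own strongest 10%. With a TSS distance of 250 bp it was −9.74. The difference in median peak width, 0 bp, was −4.0 bp from shared promoters and 28 bp from distant summits in the stronger part. CACGTG, single-gene minus shared, was −0.195 in the stronger part, −0.0605 with windows of 25 bp on each side of the summit and −0.380 with 100 bp, against 0.0629. CACACA, single-gene minus distant summits, was 0.322 with windows of 100 bp and −0.466 to 0.226 with a replicate left out, the highest without replicate 3, against −0.187. Classes were compared within each replicate, so that the replicate is the block. The number of replicates, 3, and the unknown depth limit these values.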

Other observations

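Start sites of non-coding genes, which the rule for members does not consider, lay within 500 bp of 175 member summits (7.55%). They belonged to non-coding RNA genes for 126 members, to transposable elements for 25, to small nucleolar RNA genes for 11, to pseudogenes for 10 and to transfer RNA genes for 7, and some members were near several kinds. At these members the bound promoter cannot be assigned to the protein-coding gene alone.

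Members were spread evenly over the large chromosome arms, with 167 to 186 per Mb of single-gene territory. The small chromosome 4, which is known for its heterochromatic character, held 5 members, or 46.5 per Mb. It held only 12 IDR peaks of any class, so members made up 41.7% of them, against 24.7% to 29.6% on the large arms.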
